A study of Mus musculus with 5 samples.

Results

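The cells described here are neutrophils of inflamed mouse skin, measured by droplet single-cell RNA sequencing in lesional whole skin and in imiquimod-treated dermis. A barcode was taken as a neutrophil where S100a8 and S100a9 together made up at least 4% of its unique molecular identifiers (UMIs, each standing for 1 captured transcript) and where it held no more than 1 UMI of C1qa, C1qb and C1qc, the macrophage complement genes. Before that, only barcodes in which 200 or more genes were seen and mitochondrial UMIs stayed below 20% were kept. Of 11942 kept barcodes in 5 libraries, 491 met the rule, and the 490 in the 2 inflamed libraries are described. There were 73 among 2652 kept barcodes of lesional skin, a share of 2.75% (exact 95% interval 2.16 to 3.45%), and 417 among 4991 of imiquimod dermis, a share of 8.36% (7.60 to 9.16%). The share follows from the rule and is a description.

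Lesional whole skin came from K5. Pp6fl/fl mice on the C57BL/6 strain at 18 weeks, with no treatment. K5 stands for keratin 5, whose promoter drives deletion of a floxed gene in keratinocytes, so neutrophils are not the cells the deletion is aimed at. Imiquimod dermis came from wild-type C57BL/6 mice aged 10 weeks whose ears had received imiquimod, a Toll-like receptor agonist, for 5 days in a row. The other 3 libraries were dermis and epidermis of untreated wild-type C57BL/6 mice aged 10 weeks and K5. Pp6fl/fl epidermis without lesions, at 10 weeks and on the same strain. Skin was digested to single cells and dead cells were removed by sorting before the droplet step. Each group was 1 library, how many mice went into a library is not stated in the labels, and lesional skin differed from imiquimod dermis in genotype, age, tissue layer, treatment and, by sex-linked transcripts, the sexes of the mice at once, so these cannot be told apart; the body site of the lesional skin is not stated. No difference between the libraries therefore has a test, and the intervals given cover counting error only. The text calls a gene "higher" or "lower" only where the whole 95% interval of the ratio was past 1.5-fold, a call of size.

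Neutrophils are short-lived granulocytes made in the bone marrow under granulocyte colony-stimulating factor, and they enter inflamed tissue along gradients of CXCR2 ligands and formyl peptides. They load their granules in sequence during maturation, so transcripts of most granule proteins fade once the cells leave the marrow, while cytokine and chemokine transcripts are made in tissue. In psoriasis-like skin they gather in the dermis and epidermis and release calprotectin, the S100A8 and S100A9 dimer.

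S100a8 (ENSMUSG00000056054) and S100a9 (ENSMUSG00000056071) lie close together on mouse chromosome 3, at 90668978 to 90670035 on the plus strand and at 90692632 to 90695721 on the minus strand in the mm10 build. Both encode the calcium-binding subunits of calprotectin, and both were used to choose the cells. Their joint share had a median of 20.1% of UMIs in lesional neutrophils, with a lowest of 4.22% and a highest of 39.3%, and a median of 14.3% in imiquimod neutrophils, with a lowest of 4.02% and a highest of 42.7%. Just inside the 4% limit, between 4 and 6%, stood 3 lesional and 55 imiquimod neutrophils, with Retnlg at 2688 and 2518 CPM, the UMIs of a gene scaled to a common total of UMIs. Just outside, between 2 and 4%, stood 10 lesional and 42 imiquimod barcodes low in C1q, with Retnlg at 1495 and 1132 CPM, so the neighbours below the limit held neutrophil transcripts too.

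**Figure D1:**
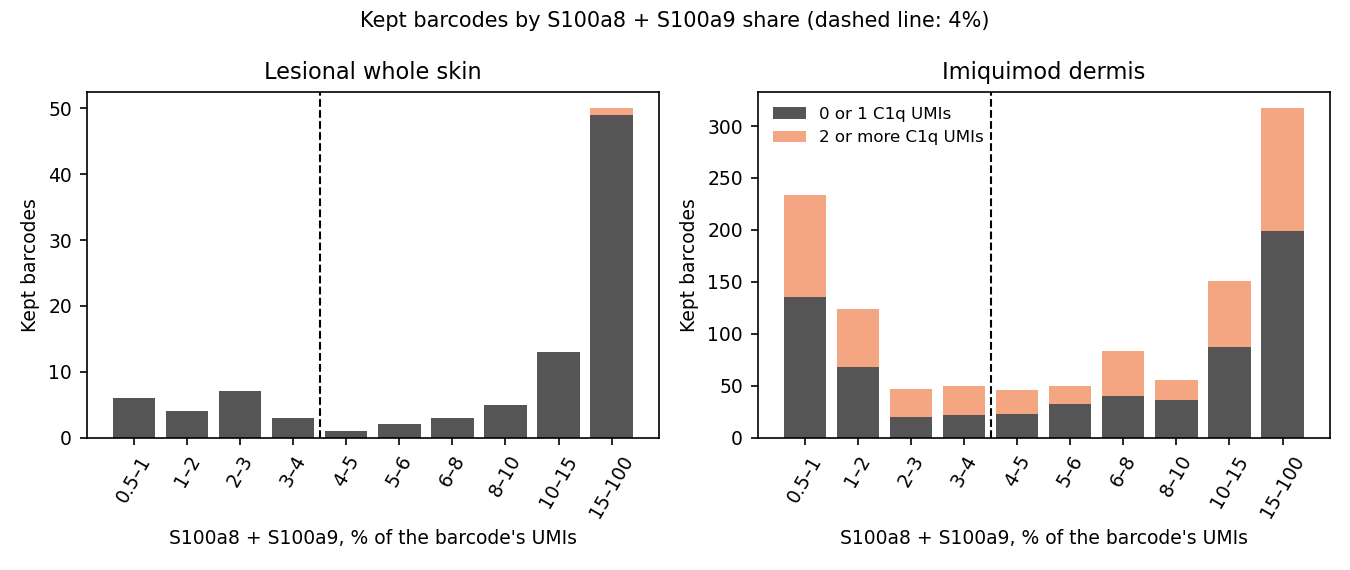
Kept barcodes by their joint S100a8 and S100a9 share of UMIs, in lesional whole skin (left) and imiquimod dermis (right), as stacked counts with 0 or 1 and with 2 or more C1q UMIs; the dashed line is the 4% limit. Of barcodes above the limit, 1 of 74 in lesional skin and 285 of 702 in imiquimod dermis had 2 or more C1q UMIs.

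The C1q limit acted unequally. It removed 1 of 74 barcodes above the S100 limit in lesional skin and 285 of 702, or 40.6%, in imiquimod dermis. The 285 removed barcodes had a median of 6573 UMIs, and all of them held a UMI of Retnlg, Csf3r or Cxcr2. C1q transcripts in the imiquimod library also stood at 164 CPM in T cells and innate lymphoid cells (ILCs), a class that should lack them, against 7.22 CPM in those of lesional skin.

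The label neutrophil was checked with 3 markers the rule did not use: Retnlg, a resistin-like secreted protein of neutrophils, Csf3r, the receptor for granulocyte colony-stimulating factor, and Cxcr2, the chemokine receptor that guides neutrophils into tissue. At least 1 UMI of these was found in 73 of 73 lesional and in 405 of 417 imiquimod neutrophils. The same was true of 0.504% of T cells and ILCs in lesional skin and of 60.2% in imiquimod dermis, so UMIs of neutrophil genes also occurred in other cells of the imiquimod library, and levels rather than presence were compared. Retnlg stood at 13516 CPM in lesional neutrophils and at 1.03 CPM in lesional T cells and ILCs, and at 12812 CPM in imiquimod neutrophils and 129 CPM in imiquimod T cells and ILCs. Csf3r stood at 707 CPM in lesional and 414 CPM in imiquimod neutrophils, with 0 and 6.98 CPM in T cells and ILCs. Cxcr2 stood at 347 CPM in lesional and 295 CPM in imiquimod neutrophils, with 0 and 1.75 CPM in T cells and ILCs. Ly6g, the surface antigen of mouse neutrophils, stood at 229 and 295 CPM, against 0 and 3.49 CPM. It had UMIs in 19 of 73 lesional and 134 of 417 imiquimod neutrophils, with 37.1 and 4.30% of them in 1 cell. Each of the 4 genes was far higher in neutrophils than in lymphoid cells of the same library, so the label fits against lymphoid cells. Their levels in macrophages and monocytes were not compared here. Of the Csf3r UMIs of kept barcodes, neutrophils held 57.1% in lesional skin and 26.1% in imiquimod dermis.

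Thinned to 1000 UMIs per cell, a Retnlg UMI was found in 56 of 68 lesional neutrophils (82.4%) and 321 of 389 imiquimod neutrophils (82.5%), and in 0.256% of T cells and ILCs in lesional skin and 12.8% in imiquimod dermis. Thinning left out 5 lesional and 28 imiquimod neutrophils with fewer UMIs. Without thinning the shares were 86.3 and 89.7%. The Retnlg share thus differed little between the libraries once depth was made equal.

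Neutrophils held 93.2% of the Retnlg UMIs and 94.6% of the Ly6g UMIs of kept barcodes in lesional skin, against 37.5% of each in imiquimod dermis. For Mmp8, neutrophil collagenase, the shares were 64.2 and 22.5%. Most UMIs of these genes in lesional skin thus lay in the called cells, and most of those in imiquimod dermis lay in other barcodes. Those others include the 285 barcodes that the C1q limit removed, which had a median S100 share of 13.3%. In lesional skin the limit removed 1 barcode. How much of a gene's UMIs the removed barcodes held was not tested, here or for the shares of other genes below.

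**Figure D2:**
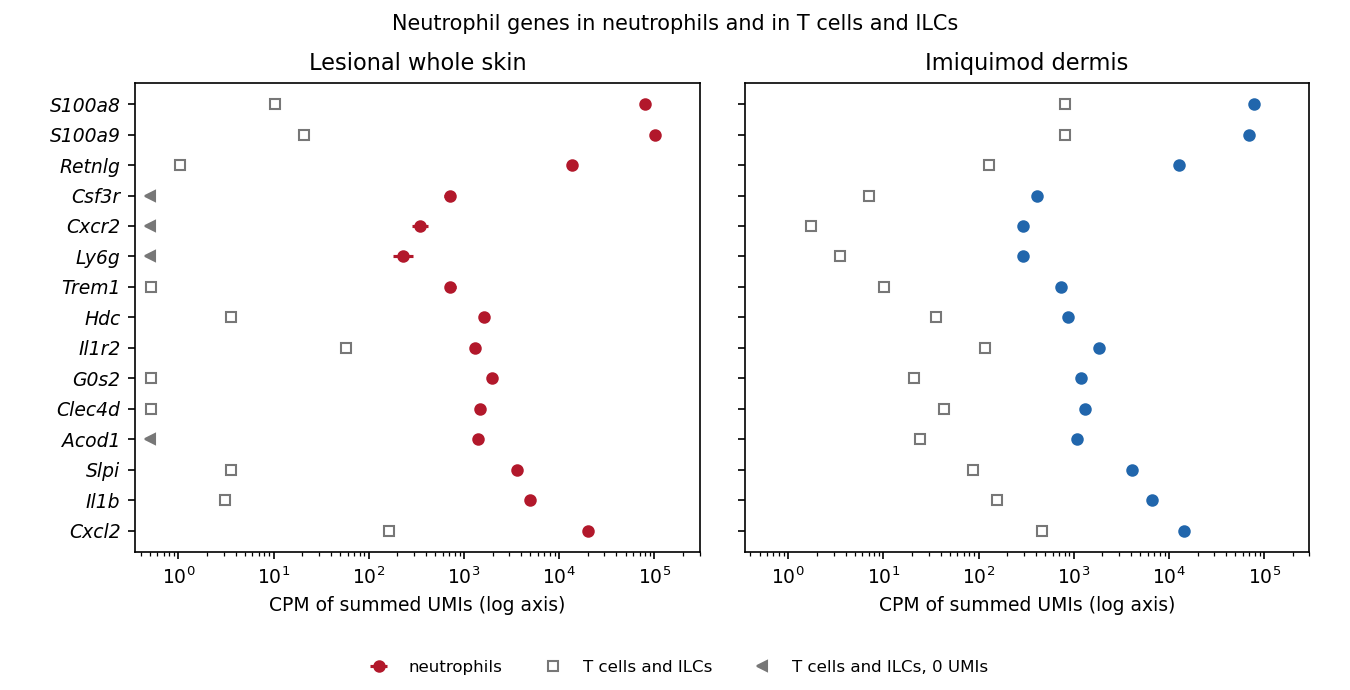
CPM on a log axis of 15 neutrophil genes in neutrophils (filled circles, bars 95% counting intervals) and in T cells and ILCs (open squares; triangles mark 0 UMIs), lesional whole skin on the left and imiquimod dermis on the right. Retnlg stood at 13516 against 1.03 CPM in lesional skin and at 12812 against 129 CPM in imiquimod dermis.

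The other libraries held almost no such cells. Untreated dermis had 1 of 521 kept barcodes, with 14267 UMIs, 2643 genes and an S100 share of 4.02%, but no UMI of Retnlg, Csf3r or Cxcr2. Untreated epidermis had 0 of 905, which allows a share of up to 0.331%, and non-lesional epidermis had 0 of 2873, which allows up to 0.104%. Totals ran between 3020790 UMIs in untreated dermis and 41258087 in imiquimod dermis over 13288 barcodes, and no barcode of lesional skin occurred in another library.

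Neutrophils were shallow cells with few mitochondrial reads. They had a median of 3173 UMIs and 848 genes in lesional skin and 3108 UMIs and 960 genes in imiquimod dermis. Mitochondrial transcripts made up a median of 0.303% of their UMIs in lesional skin, against 4.33% in T cells and ILCs there, and 0.557% in imiquimod dermis, against 2.11% in T cells and ILCs there. They held 0.950% of the kept UMIs of lesional skin and 4.06% of those of imiquimod dermis.

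Some of the barcodes also carried transcripts of other cell types. At least 3 UMIs of the markers of another class were found in 7 of 73 lesional neutrophils, 4 with fibroblast, 4 with endothelial, 2 with macrophage and 1 with keratinocyte markers. In imiquimod dermis 132 of 417 carried them, 76 with fibroblast, 72 with macrophage, 11 with mast cell, 5 with T cell, 2 with endothelial and 1 with dendritic cell markers. These 7 lesional barcodes had a median of 17523 UMIs and held 32.0% of all neutrophil UMIs of that library, and the 132 imiquimod barcodes had a median of 5339.5 UMIs and held 50.4%. Comparisons are therefore given for all neutrophils and for the 66 lesional and 285 imiquimod neutrophils with under 3 such UMIs of every class, called marker-clean below, a set chosen after seeing the data. The set is not free of such RNA, since at least 1 such UMI was found in 60 of 73 lesional and 388 of 417 imiquimod neutrophils.

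Between all neutrophils of the libraries, 2426 genes entered with at least 20 UMIs over both and at least 50 CPM in either. Of these, 552 (22.8%) were higher and 283 (11.7%) lower in lesional neutrophils, with a median log2 ratio of 0.18 over all entered genes. Scaling by the median of ratios brought the split to 442 higher and 386 lower and the median log2 ratio to -0.01. Leaving S100a8 and S100a9 out of the total brought that median to 0.28. Averaging CPM per cell gave 831 genes over 1.5-fold higher and 737 over 1.5-fold lower. These 2 counts used the ratio alone without an interval, so they are not calls as defined above. Among marker-clean neutrophils 2087 genes entered, 332 (15.9%) were higher and 345 (16.5%) lower, and the median was -0.03. T cells and ILCs compared the same way gave 1066 of 3222 genes (33.1%) higher and 392 (12.2%) lower, and 209 of the 552 and 134 of the 283 neutrophil calls had the same call there. Differences shared with lymphoid cells were thus frequent, and T cell values stand beside many of the neutrophil values. Counts in the gene lists below are to be read against these shares of all genes, and a list near them is no result about the list.

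Of 14 neutrophil identity genes, S100a8 and S100a9 among them, 3 were higher in all lesional neutrophils and none lower, a share of higher genes near the 22.8% of all genes. Hdc, the enzyme that makes histamine, stood at 1643 CPM in lesional and 862 CPM in imiquimod neutrophils, 1.91-fold higher (1.72 to 2.11). Mxd1, a MYC antagonist of differentiated cells, stood at 1362 CPM in lesional and 677 CPM in imiquimod neutrophils, 2.01-fold higher (1.79 to 2.25). Both were higher in marker-clean neutrophils as well. Trem1, an amplifying receptor of myeloid cells, stood at 720 and 726 CPM, and Clec4d, a C-type lectin receptor, at 1463 and 1310 CPM, and neither was called. S100a9 stood at 100982 CPM in lesional and 69904 CPM in imiquimod neutrophils, S100a8 at 79116 and 78314 CPM, as values of the genes that chose the cells.

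Granule genes were present for the late granules and nearly absent for the early ones. Of the 6 primary granule genes, which are made by marrow precursors, 1 entered, the protease inhibitor gene Serpinb1a, and it was not called and stood higher in T cells and ILCs of both libraries, so the azurophil genes Mpo, Elane, Prtn3 and Ctsg were too low to compare. None of the 12 cell cycle genes entered either. Of 8 secondary granule genes, 2 were higher and 2 lower. Mmp8 was found at 939 CPM in lesional and 343 CPM in imiquimod neutrophils, 2.74-fold higher (2.37 to 3.16), and 2.90-fold higher (2.42 to 3.48) in marker-clean neutrophils. Lcn2, the siderophore-binding lipocalin, stood at 4619 CPM in lesional and 2641 CPM in imiquimod neutrophils, 1.75-fold higher (1.65 to 1.86), but at 1.60-fold (1.48 to 1.72) it was not called in marker-clean neutrophils. Lyz2, lysozyme, stood at 1106 CPM in lesional and 2695 CPM in imiquimod neutrophils, 2.44-fold lower (2.18 to 2.73); in T cells and ILCs it stood at 15.5 and 637 CPM, and in marker-clean neutrophils it was not called.

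Rare cells decided some granule genes. Ltf, lactoferrin, had UMIs in 2 of 73 lesional and 12 of 417 imiquimod neutrophils, and 1 cell held 90.9% of the lesional UMIs and 1 held 67.7% of the imiquimod UMIs. Camp, the cathelicidin antimicrobial peptide, had UMIs in 3 of 73 and 14 of 417 neutrophils, with 96.2 and 68.4% of them in 1 cell. Ngp, neutrophilic granule protein, had UMIs in 23 of 73 lesional and 81 of 417 imiquimod neutrophils, with 17.8 and 41.2% in 1 cell, at 534 and 573 CPM. Levels of Ltf and Camp are thus values of single cells.

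Of 8 tertiary and secretory granule genes, 3 were higher and 2 lower. Mmp9, gelatinase B, stood at 733 CPM in lesional and 411 CPM in imiquimod neutrophils, 1.79-fold higher (1.53 to 2.08), and missed the call in marker-clean neutrophils at 1.70-fold (1.42 to 2.03). Adam8, a membrane protease of leukocytes, stood at 589 and 164 CPM, 3.6-fold higher (2.97 to 4.36), and in T cells and ILCs at 101 and 54.5 CPM. Itgam, the CD11b integrin chain, stood at 282 and 130 CPM, 2.17-fold higher (1.67 to 2.80), and 3.43-fold higher (2.50 to 4.69) in marker-clean neutrophils. Slpi, an inhibitor of neutrophil elastase, stood at 3597 and 4140 CPM and was not called.

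Receptors that sense the tissue were mostly alike in level. Of 17 chemoattractant and growth factor receptor genes, 1 was higher and 2 lower, with a list median of 0.01. Csf2rb, the common beta chain of the GM-CSF, IL-3 and IL-5 receptors, stood at 272 CPM in lesional and 114 CPM in imiquimod neutrophils, 2.39-fold higher (1.83 to 3.11), though its near-identical neighbour Csf2rb2 could take or give reads. Fpr2, a formyl peptide receptor, stood at 170 and 441 CPM, 2.59-fold lower (1.95 to 3.5). Ccrl2, an atypical receptor that presents chemerin, stood at 354 and 940 CPM, 2.66-fold lower (2.19 to 3.26). All 3 had the same call in marker-clean neutrophils. Il1r2, the decoy receptor of IL-1, stood at 1300 and 1839 CPM, Ccr1 at 710 and 706 CPM and C5ar1, the receptor for complement C5a, at 619 and 753 CPM, and none of them was called.

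Adhesion genes leaned to lesional neutrophils. Of 10 entered, 4 were higher and none lower, with a list median of 0.85; in T cells and ILCs 5 of 9 were higher and none lower, with a list median of 1.04. Itgam is given above. The calls of Itgb1 and of the endothelial gene Pecam1 rested on barcodes with other markers: Pecam1 stood at 167 and 13.9 CPM in all neutrophils, and at 19.3 and 9.74 CPM in marker-clean ones. Cd44, a hyaluronan receptor, stood at 871 and 518 CPM and was higher in marker-clean neutrophils at 1.98-fold (1.69 to 2.32), but also ran at 589 and 283 CPM in T cells and ILCs.

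Cytokine and chemokine genes split in both directions. Of 18 entered, 3 were higher and 6 lower in all neutrophils, and 5 of 19 were higher and 5 lower in marker-clean ones. Cxcl2 and Cxcl3, ligands of CXCR2 that draw in more neutrophils, leaned to lesional skin. Cxcl3 stood at 1139 CPM in lesional and 385 CPM in imiquimod neutrophils, 2.96-fold higher (2.59 to 3.38), with UMIs in 31 of 73 and 126 of 417 cells. Cxcl2 stood at 20088 and 14453 CPM, 1.39-fold (1.35 to 1.43) and not called, and at 1.61-fold (1.56 to 1.66) it was higher in marker-clean neutrophils. Cxcl1, another CXCR2 ligand, rested on 1 cell, which held 81.8% of the lesional UMIs. Neutrophils held 30.4% of the Cxcl2 UMIs of lesional skin and 26.5% of those of imiquimod dermis.

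Tnf, Il23a, Ccl2 and Ccl4 leaned to imiquimod dermis. Tnf stood at 262 CPM in lesional and 603 CPM in imiquimod neutrophils, 2.30-fold lower (1.83 to 2.93), while in T cells and ILCs it ran the other way, at 154 and 61.1 CPM. Il23a, the p19 chain of IL-23, had 2 UMIs in 2 of 73 lesional neutrophils and 110 UMIs in 50 of 417 imiquimod neutrophils, at 6.55 and 66.4 CPM, 10.1-fold lower (2.74 to 84.8). T cells and ILCs of imiquimod dermis held Il23a at 0.873 CPM and macrophages and monocytes at 5.29 CPM. Neutrophils thus held 31.7% of the Il23a UMIs of imiquimod dermis, in 4.06% of its UMIs, and 1.77% of those of lesional skin.

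Ccl2, a monocyte attractant, had no UMI in lesional neutrophils and stood at 154 CPM in imiquimod neutrophils, at least 15.7-fold lower against a floor of 3 UMIs over the group. With the S100 limit at 2% in place of 4% the direction turned, to a log2 ratio of 0.90. Ccl2 stood at 2210 CPM in imiquimod mast cells, 398 CPM in macrophages and monocytes and 40.6 CPM in T cells and ILCs of that library, and the part of their RNA in the result was not tested. In lesional skin it stood at 2073 CPM in mast cells, 127 CPM in macrophages and monocytes and 1.03 CPM in T cells and ILCs. Ccl4 stood at 1152 and 2608 CPM, 2.26-fold lower (2.03 to 2.53), and was not called in marker-clean neutrophils. Il1b, the main IL-1 cytokine of neutrophils, stood at 5005 and 6564 CPM and was not called. Thinned to 1000 UMIs, Il1b was found in 89.7% of lesional and 93.1% of imiquimod neutrophils, against 0.256 and 14.0% of T cells and ILCs. Ccl3, which draws monocytes and neutrophils, stood at 1987 and 3025 CPM and was not called.

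Genes of the oxidative burst and of extracellular traps were mixed. Of 8 entered, 2 were higher and 1 lower. Ncf1, the p47phox subunit of the NADPH oxidase, stood at 245 CPM in lesional and 75.5 CPM in imiquimod neutrophils, 3.25-fold higher (2.41 to 4.36). Padi4, the enzyme that citrullinates histones before chromatin is released, stood at 81.8 and 18.7 CPM, 4.37-fold higher (2.47 to 7.65), on 25 and 31 UMIs. Both were higher in marker-clean neutrophils too. Cyba, the p22phox subunit, was 1.74-fold lower (1.51 to 2.0) in all neutrophils and was not called in marker-clean ones.

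Of 13 pattern recognition and inflammasome genes, 2 were higher and 3 lower, with a list median of 0.02. Tlr13, a receptor for bacterial ribosomal RNA, stood at 167 CPM in lesional and 56.2 CPM in imiquimod neutrophils, 2.97-fold higher (2.07 to 4.23). Tlr4, the endotoxin receptor, was 3.0-fold higher (1.67 to 5.24). Clec4n, which encodes the fungal receptor dectin-2, stood at 68.7 and 236 CPM, 3.44-fold lower (2.22 to 5.61), and Pycard, the inflammasome adaptor ASC, at 29.5 and 153 CPM, 5.19-fold lower (2.69 to 11.5). In T cells and ILCs Pycard stood at 103 and 205 CPM and Clec4n at 0 and 32.7 CPM. Nlrp3, a sensor protein of the inflammasome, stood at 412 and 248 CPM, and was higher in marker-clean neutrophils at 1.89-fold (1.51 to 2.36). All 3 Fc receptor genes that were lower among 4 entered, Fcgr2b, Fcgr4 and Fcer1g, lost the call in marker-clean neutrophils, where none of 4 was called.

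Interferon-stimulated genes were lower where called, with 1 exception. Of 12 entered, 1 was higher and 4 lower, with a list median of -0.61, and in marker-clean neutrophils 1 of 13 was higher and 6 lower. T cells and ILCs gave a similar count, 1 of 10 higher and 4 lower. Ifitm1, a membrane protein that restricts viral entry, stood at 4010 CPM in lesional and 9105 CPM in imiquimod neutrophils, 2.27-fold lower (2.14 to 2.41). Ifi27l2a stood at 141 and 591 CPM, 4.20-fold lower (3.09 to 5.84), and Ly6e at 249 and 623 CPM, 2.51-fold lower (1.98 to 3.21). Zbp1, a sensor of Z-form nucleic acid, had 2 lesional UMIs and stood at 6.55 and 81.5 CPM, 12.5-fold lower (3.38 to 104). Slfn4, a myeloid schlafen gene, ran the other way at 304 and 88.8 CPM, 3.43-fold higher (2.62 to 4.48), with 0.516 and 3.93 CPM in T cells and ILCs. Isg15, a ubiquitin-like interferon target, stood at 88.4 and 162 CPM and was not called.

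Of 12 NF-kB feedback genes, 2 were higher and 1 lower. Nfkbia, the inhibitor IkB-alpha, stood at 2386 CPM in lesional and 4347 CPM in imiquimod neutrophils, 1.82-fold lower (1.69 to 1.97), and Nfkb1, the p105 precursor of p50, at 190 and 50.1 CPM, 3.79-fold higher (2.66 to 5.36). In T cells and ILCs Nfkb1 ran the same way, at 325 and 116 CPM, and Nfkbia did not, at 1602 and 1424 CPM. Of 21 immediate-early and dissociation stress genes 3 were higher and 1 lower in neutrophils, with a list median of -0.02, against 17 of 21 higher and none lower in T cells and ILCs, with a list median of 1.2. Jund, an AP-1 subunit, stood at 2239 and 834 CPM, 2.68-fold higher (2.45 to 2.94), and Zfp36, which destabilises cytokine transcripts, at 416 and 849 CPM, 2.04-fold lower (1.70 to 2.47). The heat shock gene Hspa1b stood at 3640 and 660 CPM in neutrophils and at 14911 and 773 CPM in T cells and ILCs; its near-identical copy Hspa1a, at 4301 and 3134 CPM in neutrophils, makes the split between the pair uncertain.

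Of 12 survival genes 1 was higher and 2 were lower, the paralogs Bcl2a1b and Bcl2a1d, whose reads are hard to tell apart. In marker-clean neutrophils 2 of 12 were higher and none lower, so both paralogs lost the call there. Mcl1, the short-lived survival protein that neutrophils depend on, stood at 1794 CPM in lesional and 674 CPM in imiquimod neutrophils, 2.66-fold higher (2.40 to 2.95). T cells and ILCs had Mcl1 at 482 and 152 CPM, the same direction. Of 25 glycolysis and hypoxia genes 6 were higher and 1 lower, and in marker-clean neutrophils 4 of 24 were higher and 1 lower, shares of higher genes near the 22.8 and 15.9% of all genes. Slc2a3, the glucose transporter GLUT3, stood at 347 and 103 CPM, 3.38-fold higher (2.63 to 4.33). Pfkfb3, which makes the activator of phosphofructokinase, stood at 164 and 48.3 CPM, 3.39-fold higher (2.33 to 4.88).

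Hif1a, the hypoxia-inducible transcription factor, stood at 363 CPM in lesional and 155 CPM in imiquimod neutrophils, 2.34-fold higher (1.86 to 2.94), and at 302 and 161 CPM in T cells and ILCs. Hilpda, a lipid droplet protein induced by hypoxia, ran against the list at 85.1 and 455 CPM, 5.34-fold lower (3.62 to 8.23), and in T cells and ILCs it stood at 168 and 99.5 CPM. Gapdh, a glycolytic enzyme, stood at 2498 and 2083 CPM and was not called. The call of Ndrg1 in the same list rested on barcodes with markers of other classes and turned to the other sign without them. Among 9 lipid mediator and regulatory enzyme genes 1 was higher and 1 lower. Hmox1, heme oxygenase, stood at 1011 and 476 CPM, 2.13-fold higher (1.86 to 2.43), and Pla2g7, which breaks down platelet-activating factor, at 190 and 430 CPM, 2.26-fold lower (1.73 to 3.01). In marker-clean neutrophils 1 of 8 genes of this list was higher and none lower, so Pla2g7 was not called there. Acod1, which makes itaconate, stood at 1391 and 1089 CPM and was not called. None of 12 transcription factor genes was called in either direction, among them Cebpb at 3624 and 3548 CPM and Klf2 at 1257 and 1245 CPM.

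**Figure D3:**
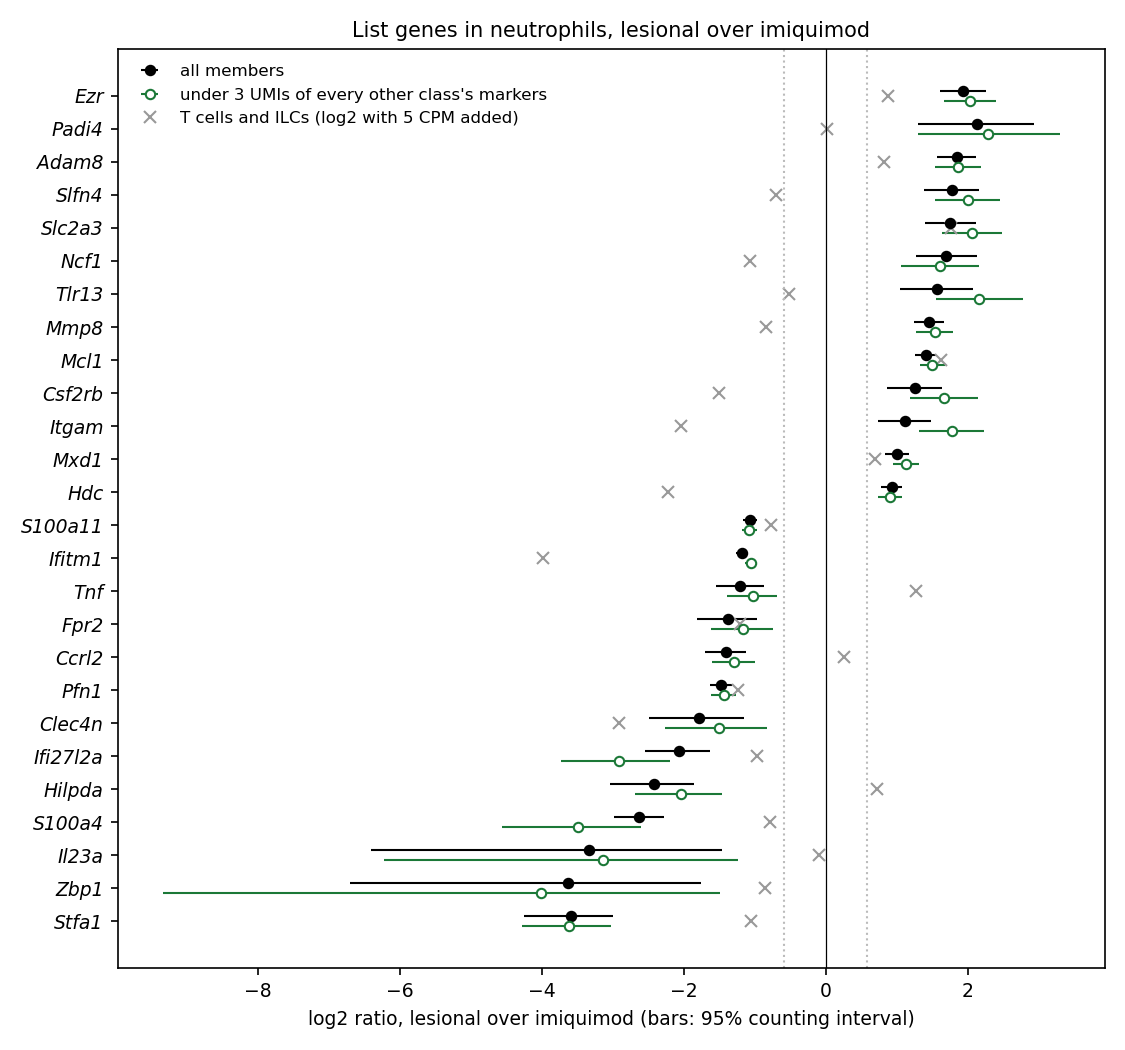
Log2 ratio of CPM, lesional over imiquimod neutrophils, for 26 genes of the lists, for all neutrophils (black) and for those with under 3 UMIs of the markers of every other class (green), with 95% counting intervals, and for T cells and ILCs (crosses); dotted lines mark 1.5-fold. Mmp8 at 2.74-fold and Mcl1 at 2.66-fold lay to the right, and Zbp1 at 12.5-fold and Stfa1 at 12.1-fold lower lay farthest to the left.

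Some other S100 genes and stefin genes leaned to imiquimod neutrophils. Of 6 S100 genes, S100a8 and S100a9 among them, 2 were lower and none higher, with a list median of -0.29. In marker-clean neutrophils 3 were lower and 1 higher. In T cells and ILCs 4 of 6 were lower and none higher, with a list median of -0.78, so the lean of S100 genes was not particular to neutrophils. S100a11 stood at 3208 CPM in lesional and 6732 CPM in imiquimod neutrophils, 2.10-fold lower (1.97 to 2.24), and at 895 and 1527 CPM in T cells and ILCs. S100a4 stood at 229 and 1414 CPM in neutrophils, but at 4386 CPM in imiquimod T cells and ILCs, and 12 of 73 lesional cells held it against 338 of 417 imiquimod cells. S100a6 stood at 7005 and 7428 CPM and was not called. Of the 6 stefin A genes, cysteine protease inhibitors clustered on chromosome 16, 3 were lower and none higher. Stfa1 stood at 75.3 CPM in lesional and 909 CPM in imiquimod neutrophils, 12.1-fold lower (8.02 to 19.1), with UMIs in 3 of 73 and 80 of 417 cells. Thinned to 1000 UMIs, Stfa1 was found in 2.94% of lesional and 13.1% of imiquimod neutrophils. The copies are near-identical and the assignment of reads among them is uncertain: Stfa2l1 stood at 1607 and 2097 CPM and Gm5483 at 2010 and 2477 CPM, and neither was called.

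Of 7 MHC class II genes listed, 6 entered, through their imiquimod levels, and all 6 were lower in lesional neutrophils, with a list median of -3.90, and so were 4 of 4 in T cells and ILCs, with a list median of -3.81. H2-Ab1 stood at 13.1 CPM in lesional and 416 CPM in imiquimod neutrophils, and at 17.5 and 313 CPM in T cells and ILCs. Cd74, the invariant chain, stood at 42.6 and 781 CPM in neutrophils, and at 140 and 660 CPM in T cells and ILCs. Levels in imiquimod neutrophils were near those in lymphoid cells of the same library and are not read as neutrophil expression.

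The genes that differed most in size were led by the barcodes with other markers. The 10 highest by log2 ratio were Nts, Lyve1, Mmrn1, Tm4sf1, Emcn, Vwf, Lbp, Ece1, Timp3 and Mgp. Each stood highest in endothelium among the gated classes of lesional skin, and none was called in marker-clean neutrophils. Lyve1, a marker of lymphatic endothelium, had 96 UMIs at 314 CPM in lesional neutrophils against 4 UMIs at 2.42 CPM in imiquimod neutrophils, and 1 cell held all of the lesional ones. The 10 lowest were Ccl8, H2-Ab1, H2-Eb1, Scimp, H2-DMa, H2-DMb1, Stfa1, Pld4, Ctss and Plac8. Ctss, cathepsin S of antigen-presenting cells, stood at 42.6 and 443 CPM in neutrophils, with 74.8 and 199 CPM in T cells and ILCs. Scimp, an adaptor of immune cells, had no lesional UMI and stood at 63.4 CPM in imiquimod neutrophils, at least 6.46-fold lower, and at 1.55 and 1.75 CPM in T cells and ILCs.

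In marker-clean neutrophils the 10 highest were Lars2, Gdap10, Basp1, Mpp7, Jdp2, Camp, Sh3bp5, Etnk1, Fnip2 and Slc15a2. Basp1, a membrane-bound signalling protein, stood at 1295 CPM in lesional and 98.6 CPM in imiquimod neutrophils, 13.1-fold higher (10.2 to 17.0), with UMIs in 43 of 66 and 53 of 285 cells. Basp1 stood at 6.19 and 32.3 CPM in T cells and ILCs, the other direction, though it was not called there. In mast cells, the gated class where it stood highest in both libraries, it ran the same way as in neutrophils, at 683 and 284 CPM. Jdp2, a repressor that pairs with AP-1 proteins, stood at 270 and 19.5 CPM, 13.8-fold higher (7.83 to 25.8), with UMIs in 33 of 66 and 16 of 285 cells, and at 9.80 and 1.31 CPM in T cells and ILCs. Fnip2, a partner of folliculin, stood at 236 and 18.3 CPM. Lars2, the mitochondrial leucyl-tRNA synthetase, stood at 140 and 6.09 CPM and ran the same way in T cells and ILCs at 165 and 21.8 CPM. Of the 51 Camp UMIs in marker-clean lesional neutrophils, 98.0% lay in 1 cell. The 10 lowest were Scimp, AI413582, H2-Ab1, Tnfaip6, Casp6, Rpp21, Stfa1, Snrpg, Hint1 and H2-Q7. Etnk1 was called higher and Hint1 lower in T cells and ILCs as well. Tnfaip6, which binds hyaluronan, and Casp6, a caspase, had no lesional UMI and stood at 64.5 and 59.7 CPM in imiquimod neutrophils, at least 4.47-fold and 4.13-fold lower.

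Neutrophils within a library were not uniform. Marker-clean neutrophils were ordered by their Retnlg share of UMIs and split in 3 equal groups, of 22 cells each in lesional skin and 95 each in imiquimod dermis. The groups are ranges of a continuous value and not types: 2 and 3 lesional cells and 3 and 15 imiquimod cells lay within 10% of the cuts. In lesional skin 9 of the 22 cells of the low group held no Retnlg UMI, and in imiquimod dermis 34 of 95. The low groups were also shallower, with a median of 1931.5 UMIs in lesional and 2199 in imiquimod dermis, against 3511.5 and 3409 in the high groups. S100a8 and S100a9, which chose the cells, moved with Retnlg, at a median of 15% of UMIs in the low and 24.5% in the high group of lesional skin, and 10.3 and 19.9% in imiquimod dermis.

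Set low over high, 54 of 742 genes (7.28%) were higher and 39 (5.26%) lower in lesional skin, and 79 of 1955 (4.04%) were higher and 35 (1.79%) lower in imiquimod dermis. The libraries shared 20 of the higher genes, 37.0% of the lesional and 25.3% of the imiquimod ones, and no gene higher in lesional skin was lower in imiquimod dermis. They shared 11 of the lower genes, 28.2% of the lesional and 31.4% of the imiquimod ones, and 1 gene ran the other way. That gene was Chil3, a chitinase-like protein made by neutrophils and macrophages, at 22.4 CPM in the low and 362 CPM in the high group of lesional skin and at 314 and 109 CPM in imiquimod dermis. Chil3 had UMIs in only 7 of all 73 lesional neutrophils, with 55.8% of them in 1 cell, so its lesional direction rests on few cells. In imiquimod dermis 135 of 417 neutrophils had them. The cells come from 1 library each, so these ratios describe the 2 libraries.

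Secondary granule genes went with Retnlg. Of 6 entered, 5 were lower in the low group of lesional skin, and 4 were lower and 1 higher in that of imiquimod dermis. Of 8 tertiary and secretory granule genes 1 was lower in lesional skin and none was called in imiquimod dermis. Ngp had no UMI in the low group of lesional skin and stood at 1335 CPM in the high group, and it stood at 18.7 CPM in the low and 829 CPM in the high group of imiquimod dermis. Mmp8 stood at 89.7 CPM in the low and 1798 CPM in the high group of lesional skin, 20.04-fold lower (7.68 to 74.5), and at 126 and 555 CPM in imiquimod dermis, 4.39-fold lower (2.92 to 6.84). Ly6g stood at 89.7 CPM in the low and 554 CPM in the high group of lesional skin, and at 145 and 478 CPM in imiquimod dermis. Only 19 of all 73 lesional neutrophils held Ly6g UMIs, with 37.1% of them in 1 cell. Slc2a3 took the same order, at 112 and 611 CPM in lesional skin and 32.8 and 186 CPM in imiquimod dermis. In the middle group Mmp8 stood at 629 CPM in lesional and 264 CPM in imiquimod neutrophils. Its lesional level was thus above the imiquimod level in the middle and high groups and below it in the low group. The groups were cut at different Retnlg shares in the libraries, and the difference between libraries within a group was not tested.

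A part of the cytokine and chemokine genes went against Retnlg. Of 10 entered, 6 were higher and none lower in the low group of lesional skin, and of 18 entered, 7 were higher and 1 lower in that of imiquimod dermis. Il1b was not called in either. Of the NF-kB feedback genes 1 of 9 in lesional skin and 3 of 11 in imiquimod dermis were higher. Tnf stood at 852 CPM in the low and 170 CPM in the high group of lesional skin, 5.02-fold higher (2.70 to 9.83), and at 1147 and 366 CPM in imiquimod dermis, 3.13-fold higher (2.52 to 3.92). Ccl3 stood at 4598 and 1810 CPM in lesional skin and at 5599 and 2249 CPM in imiquimod dermis, 2.54-fold (2.06 to 3.14) and 2.49-fold (2.27 to 2.73) higher. Nfkbia stood at 5495 and 1855 CPM in lesional skin and at 8000 and 3594 CPM in imiquimod dermis. In both libraries these 3 genes were highest in the group with least Retnlg.

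Immediate-early and dissociation stress genes moved with the same groups. Of 19 entered, 10 were higher and none lower in the low group of lesional skin, and of 21 entered, 6 were higher and none lower in that of imiquimod dermis. Hspa1a, a heat shock gene, stood at 14311 CPM in the low and 1041 CPM in the high group of lesional skin, 13.8-fold higher (11.04 to 17.3), and at 3464 and 2771 CPM in imiquimod dermis, where it was not called. Hspa1a was uneven between cells of lesional skin. Of all 73 lesional neutrophils 45 held its UMIs, with 23.1% of them in 1 cell. In imiquimod dermis 394 of 417 held them, with 3.49% in 1 cell. The interval of the lesional ratio covers counting error only, and how far single cells set that ratio was not tested. Egr1, an immediate-early transcription factor, stood at 493 and 136 CPM in lesional skin and at 477 and 142 CPM in imiquimod dermis, 3.64-fold (1.72 to 8.06) and 3.37-fold (2.37 to 4.85) higher. The part of handling stress in the cytokine differences was not tested.

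Cxcr4, the receptor that aged neutrophils regain, stood at 336 CPM in the low and 56.6 CPM in the high group of lesional skin, 5.95-fold higher (2.06 to 20.9), and at 225 and 59.0 CPM in imiquimod dermis, 3.81-fold higher (2.22 to 6.77). Icam1, an adhesion molecule of activated cells, had 17 UMIs in the low and none in the high group of lesional skin, and stood at 370 and 62.0 CPM in imiquimod dermis. Il23a of imiquimod neutrophils stood at 178 CPM in the low, 108 CPM in the middle and 8.85 CPM in the high group, on 38, 29 and 3 UMIs. Cxcr2, by contrast, stood at 538 CPM in the low and 351 CPM in the high group of lesional skin and at 342 and 404 CPM in imiquimod dermis, and was not called in either.

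**Figure D4:**
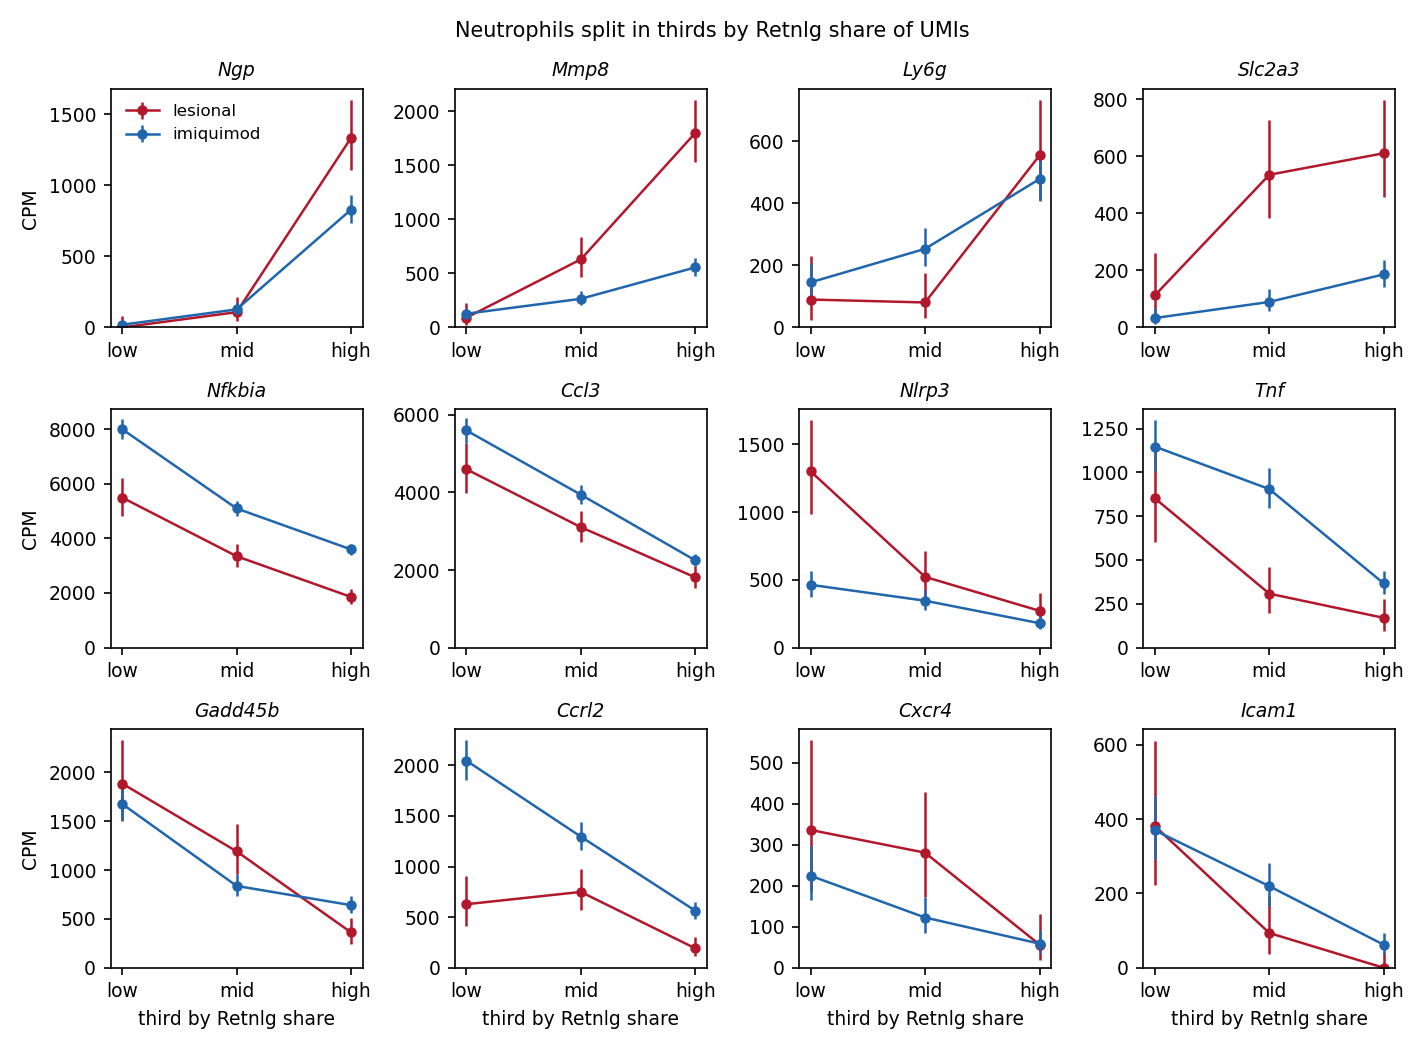
CPM of 12 genes in marker-clean neutrophils split in 3 equal groups by Retnlg share, low to high, for lesional skin (red, 22 cells a group) and imiquimod dermis (blue, 95 cells a group), with 95% counting intervals. Ngp, Mmp8, Ly6g and Slc2a3 were highest in the high group of both libraries, and Nfkbia, Ccl3, Nlrp3, Tnf and Cxcr4 were highest in the low group of both.

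Sex-linked transcripts showed that the lesional library held cells of males and females. Outside the neutrophils, 1077 kept barcodes of lesional skin had UMIs of Y-linked genes and none of Xist, the RNA of the inactive X chromosome, 752 had Xist and no Y-linked UMI, and 43 had both. Among the 73 neutrophils 26 had Y-linked UMIs alone, none had Xist alone and 1 had both. Of 26 neutrophils with 1 kind only, 0 with Xist allows a share of up to 11.5%, and in the other kept barcodes the share was 41.1% (38.8 to 43.4%). T cells and ILCs stood at 46.0%, macrophages and monocytes at 28.1% and keratinocytes at 48.4%.

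The counts ran the same way within a narrower range of depth. Between 2396 and 4362 UMIs, the middle range of the neutrophils, 14 of 37 neutrophils had Y-linked UMIs alone and none had Xist alone, against 98 and 73 of the 314 other kept barcodes in that range. Imiquimod dermis gave no Xist UMI in any class, with Y-linked UMIs in 144 of its 417 neutrophils, so all of its cells look male. No library here held neutrophils known to be female, so whether Xist can be seen in neutrophils at this depth was not tested, and which of the mice gave the lesional neutrophils cannot be told apart from that.

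**Figure D5:**
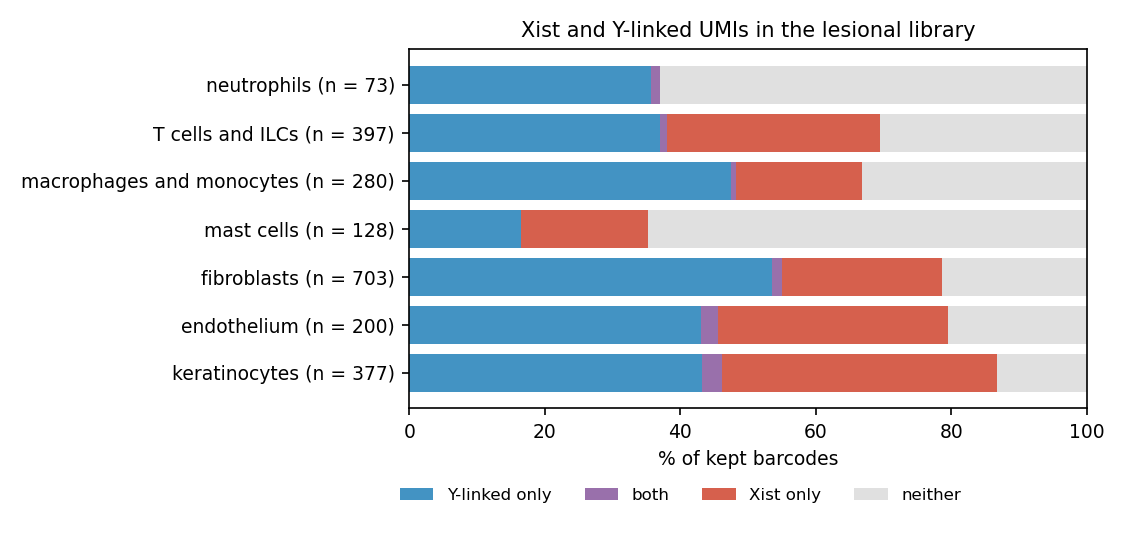
Percent of kept barcodes of lesional whole skin with Y-linked UMIs only, both, Xist only or neither, by class, neutrophils at the top. The neutrophil bar holds 26 Y-linked-only cells of 73 and no cell with Xist only, while T cells and ILCs hold 147 and 125 of 397.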

How the data were processed

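The deposited files hold raw UMI counts per gene and barcode for 31053 genes in each of 5 droplet libraries, as the authors' matrices (software version 3.0.2, per the file headers). CASAVA, Cell Ranger and the mm10 build are named in the submitters' processing notes. All 5 libraries were read and no column was left unused. UMIs were summed over the neutrophils of a library and scaled to CPM, with exact Poisson intervals, and ratios have exact conditional binomial intervals, both at 95% and for counting error only. Log2 ratios add 5 CPM. T cells and ILCs and the 6 other classes are barcodes with at least 3 UMIs of a class's markers that make up at least 70% of its class-marker UMIs, and classes under 20 cells were not compared. Named genes are the rule markers, up to 6 genes per list by level or ratio, and the 10 highest and 10 lowest ratios beyond 2-fold, leaving out genes over 5 times higher in another class and mitochondrial, ribosomal, haemoglobin, predicted and sex-linked genes. Further genes of the lists (Tnf, Tlr4, Nlrp3, Slc2a3, Cxcr4, Chil3 and others) were named after their values were seen. Members and gene lists were chosen with earlier results of these data known. No doublets were removed, and Scrublet was tried as an alternative. The calls were tried on simulated sums with counting error only. These had no variation between cells and no RNA from other cells, so neither was tested. Python 3.11.15, numpy 2.4.6, scipy 1.17.1, pandas 2.3.3 and scanpy 1.11.5 were used. Coordinates are from GENCODE on mm10. A gene of the adhesion list is counted there but not reported by name here.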

Additional observations from a re-analysis of the deposited data

How the results depend on the processing

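Of 139 named genes, between 82 (cells thinned to 1000 UMIs) and 139 kept their call under each of 19 other settings. A gene uncalled in both counted as kept whatever its sign. Of the settings, 2 were chosen after seeing the data: leaving out barcodes with markers of any class, and keeping lesional cells with Y-linked UMIs only. The neutrophil share of lesional skin was 2.15% over all barcodes. That of imiquimod dermis was 9.20 and 6.45% at S100 limits of 2 and 8%, 4.37% with no C1q UMI allowed, 14.1% with no C1q limit, 6.59% without barcodes carrying T cell, mast cell, keratinocyte, fibroblast or endothelial markers, and 5.71% without those of any class. Genes higher numbered 332 without any class's markers, 831 by mean CPM per cell, 149 after thinning, 1099 with no CPM minimum and 314 at 100 CPM, and genes lower numbered 737 by mean CPM per cell and 148 after thinning. List genes higher, 33 in the main comparison, numbered 70 by mean CPM per cell, and list genes lower, 39, numbered 17 after thinning. The counts by mean CPM per cell took every ratio past 1.5-fold without an interval, so they are not like the other counts. The share of neutrophils with Retnlg was 91.5% in both libraries at 2000 UMIs and 74.1% in imiquimod dermis at 500. Among genes called in the main comparison or under the alternative, log2 ratios took the other sign for Ltf (0.19 with no C1q UMI, 0.77 and 0.48 without other markers), Itgb1 (-1.12 and -0.53), Lbp (-0.062 and -0.011) and Mgp (-0.76 and -0.92) without other markers, Ndrg1 (-0.55 at 8%, -0.37 and -0.38 without other markers), Lyve1 (-0.57, -0.45 and -0.31 likewise), Nts (-0.21 at 8%), Ccl2 (0.90 at 2%), and Hspa1a (-1.0), Cxcl1 (-1.23) and Camp (-3.69) with Y-linked cells only. Signs were checked for the 139 named genes only. None of those called in the main comparison changed sign under the median of ratios, the total without S100a8 and S100a9 or the mean CPM per cell. Uncalled genes with ratios near 0 crossed 0 as well, among them Retnlg (-0.23 to 0.25 over the settings) and S100a8 (-0.42 to 0.23). The causes were not tested. Scrublet left out 5 of 73 and 17 of 417 neutrophils. No paired analysis was possible because each group is 1 library, and for the same reason no library could be left out in turn.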
